A study of Rattus norvegicus with 12 samples.

Results

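The genes described here are 10 members of the circadian clock and its output in rat liver: Arntl, Clock, Per1, Per2, Per3, Nr1d1, Nr1d2, Dbp, Tef and Hlf. They were taken by gene symbol from the non-control probes of every array, which gave 10 of the 15502 genes named on the arrays and 12 probes of 41012. Per3 had 3 probes and each of the other genes had 1, and a gene is represented by its brightest probe. The 12 oligonucleotide arrays each held 2 liver RNAs in 2 colours, in 6 direct comparisons of 2 dye-swapped arrays. All rats were of the Fischer 344 strain and 12 weeks old. Of the 6 RNAs, 4 came from males and females with the pituitary intact and from hypophysectomised (Hx) males and females given nothing further, and 2 from Hx males given growth hormone (GH) as 1 or 2 injections. Hypophysectomy is the removal of the pituitary, so these animals lack the other pituitary hormones as well as GH, and the GH-treated rats lack them too. Intact and Hx RNAs were pools of 3 to 4 livers, with separate pools for the 2 arrays of a comparison. The 1-injection RNA pooled 4 rats, killed 30, 60 or 90 min after GH. The 2-injection RNA was 1 pool of 5 livers whose injections were 3 or 4 h apart, and each GH pool was used on both of its arrays. A p-value for GH therefore leaves out the spread between GH-treated animals. The sources used here do not give the time of day at which rats were killed, so time of day and group cannot be told apart.

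In the circadian clock, the proteins of Arntl (also called Bmal1) and Clock form a dimer that binds E-box sequences and switches on the Per, Cry and Nr1d genes and Dbp. Per and Cry proteins then block the dimer, and the Nr1d receptors (REV-ERB alpha and beta) repress Arntl through sequences named RORE, so that in liver Arntl peaks at about the time of day at which Dbp and Nr1d1 are lowest. Dbp, Tef and Hlf, the PAR bZIP factors, carry the rhythm to drug, lipid and amino acid metabolism by binding D-box sequences, and liver Per2 also follows feeding time and circulating hormones.

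The stretches of 250 bases upstream of the annotated starts of 4 members are printed because they hold the sequences through which the clock genes are known to act on each other. Capitals mark an E-box (CACGTG), the related sequence CACGTT, a D-box (TTATGTAA) or a RORE, each searched on both strands, and the short form AGTAGGTNA, which was added after the Arntl stretch was seen and lies inside its RORE. The sequences are from RefSeq, build GRCr8, which had entries for 9 of the 10 members (Arntl as Bmal1), and are written 5′ to 3′ on the strand of the gene.
Arntl, plus strand, chr1:176766078-176766327: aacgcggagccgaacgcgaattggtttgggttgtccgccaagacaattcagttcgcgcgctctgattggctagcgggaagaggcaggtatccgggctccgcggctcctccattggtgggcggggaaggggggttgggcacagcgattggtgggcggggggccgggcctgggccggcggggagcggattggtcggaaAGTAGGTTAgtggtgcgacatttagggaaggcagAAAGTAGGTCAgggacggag
Per2, minus strand, chr9:99496994-99497243: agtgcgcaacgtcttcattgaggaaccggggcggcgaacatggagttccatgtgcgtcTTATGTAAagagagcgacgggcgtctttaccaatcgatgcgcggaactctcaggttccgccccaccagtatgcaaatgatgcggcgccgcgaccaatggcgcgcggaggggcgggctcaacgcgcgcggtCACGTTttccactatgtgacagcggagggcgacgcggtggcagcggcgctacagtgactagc
Nr1d1, minus strand, second annotated start, chr10:84229455-84229704: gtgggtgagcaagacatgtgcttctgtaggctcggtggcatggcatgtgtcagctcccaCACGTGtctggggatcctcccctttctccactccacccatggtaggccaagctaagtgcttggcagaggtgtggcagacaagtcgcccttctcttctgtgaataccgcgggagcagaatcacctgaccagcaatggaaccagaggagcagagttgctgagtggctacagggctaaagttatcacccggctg
Tef, plus strand, chr7:115206577-115206826: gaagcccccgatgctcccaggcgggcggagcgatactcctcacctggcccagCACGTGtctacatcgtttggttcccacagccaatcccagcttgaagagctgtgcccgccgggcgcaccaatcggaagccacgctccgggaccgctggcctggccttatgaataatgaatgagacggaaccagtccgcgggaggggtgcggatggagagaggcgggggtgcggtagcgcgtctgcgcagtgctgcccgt
Of 33469 such stretches in the table, 5.59% held CACGTG, 4.07% CACGTT, 0.828% TTATGTAA, 0.317% a RORE and 0.511% the short form. The Arntl stretch held a RORE and a second copy of the short form, Per2 held a D-box and CACGTT, and Nr1d1 and Tef each held CACGTG. At its first annotated start Nr1d1 held CACGTT on the opposite strand. The stretches of Dbp, Per1, Per3, Nr1d2 and Clock held none of these sequences. TTCNNNGAA, the form of sequence bound by the GH-activated factor STAT5, occurred in the stretches of Dbp and of the second Nr1d1 start and in 7.67% of all, but not in that of Per2.

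Levels were read against the scanner software's flag for a spot well above background. Hepatocyte markers (8 of 8) were above background in every reading, and the share of all probes above background ranged from 58.4% to 71.1% per colour and array. Per1, Per2, Dbp, Nr1d1, Nr1d2 and Arntl passed in 24 of 24 readings. Tef passed in 17 readings, Per3 in 16 and Clock in 9. Hlf passed in 0 of 24 readings and was not tested in any comparison. Testing a probe in a comparison required both arrays of 1 or both RNAs to be well above background, and a gene was called at an adjusted p under 0.05 in limma's moderated test over all probes tested. Ratios are log2 of the first RNA named over the second, ± SE, with n = 2 arrays. In the comparisons of intact and Hx RNAs, array 1 and array 2 lay on different slides and had opposite dyes, so the 2 array values are also the values within each slide. All 4 GH arrays shared 1 slide.

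After hypophysectomy, 7 members rose and Arntl fell, in males and in females. In males 8 of 8 members tested were called, where 37.5% of 25984 probes were called (19% higher and 18.5% lower). In females 8 of 8 were called, where 36.3% of 24320 probes were (17.9% higher and 18.5% lower). The median log2 ratio of the tested members was 0.91 in males and 1.01 in females, and that of all probes tested was 0.01 and 0.00. Tef and Per3 were tested only through the Hx RNA, in which they were higher. With both RNAs required above background, 6 of 6 members tested were called in each sex (5 higher and 1 lower), where 9220 of 23959 probes were called in males and 8264 of 22881 in females. These 2 comparisons share no RNA.

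Dbp, the PAR bZIP factor named for its site in the albumin promoter, had the largest fitted change with the offset of 50 that was added to intensities. In males its log2 ratio of Hx over intact was 2.85 on array 1 and 2.80 on array 2, a fit of 2.82 ± 0.15 (7.06-fold, adjusted p = 8.22e-06). In females the arrays gave 2.98 and 3.10, a fit of 3.04 ± 0.15 (8.23-fold, adjusted p = 5.21e-06). The 2 arrays of each sex lay closer to each other than 1 SE of the fit, and both calls held under every processing alternative tried. From the processed signals the values were 3.03 in males and 3.18 in females, where that of the dim Per3 probe was 3.21. On the single-channel scale, in log2 intensity of its probe, Dbp lay between 11.7 and 12.8 in the Hx RNAs of these comparisons and between 8.91 and 9.79 in the intact RNAs. On the arrays that paired intact males with intact females, intact RNAs read lower, between 8.12 and 8.52. Intact and Hx levels did not overlap in either setting.

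Tef and Hlf, the other PAR bZIP genes, gave dim probes. Tef was above background on both Hx arrays of each sex and on neither intact array of these comparisons. Its log2 ratios were 0.25 and 0.24 in males, a fit of 0.25 ± 0.06 (1.19-fold higher, adjusted p = 0.0129). In females they were 0.35 and 0.32, a fit of 0.34 ± 0.06 (at least 1.25-fold higher, adjusted p = 0.00324). Small as they are, both arrays of each sex lay above 0. From the scanner's own processed signals, to which no offset was added, the Tef values were 1.20 and 1.26. Leaving out array 1 ended the call in males (0.19, adjusted p = 0.170) and in females (0.27, adjusted p = 0.0889). For Hlf, with no reading above background in any of the 6 RNAs, the single-channel means ran from 6.12 to 6.27 log2 units.

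Both Nr1d genes rose. Nr1d1, which encodes REV-ERB alpha, had log2 ratios of 1.37 and 1.07 in males, a fit of 1.22 ± 0.16 (2.33-fold, adjusted p = 0.000863). In females they were 1.61 and 1.94, a fit of 1.78 ± 0.16 (3.43-fold, adjusted p = 0.000142). The female arrays both lay above the male ones, but the male change minus the female change, −0.46 ± 0.16 as the mean of its 2 direct estimates, did not pass (adjusted p = 0.109). Without array 1 of Hx over intact males that difference was −0.64 and passed (adjusted p = 0.0152). Nr1d2, which encodes REV-ERB beta, had 1.47 and 1.15 in males (1.31 ± 0.18, adjusted p = 0.000892) and 1.17 and 1.66 in females (1.42 ± 0.18, adjusted p = 0.000622). Here the arrays of the sexes overlapped. From the processed signals the Nr1d2 values were 1.87 and 2.12.

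Arntl, the target of REV-ERB repression, was the 1 member that fell. Its ratios were −1.35 and −0.73 in males, a fit of −1.04 ± 0.24 (2.06-fold lower, adjusted p = 0.0101), and −1.40 and −1.41 in females, a fit of −1.41 ± 0.24 (2.65-fold lower, adjusted p = 0.00258). Arntl lay below 0 on every one of these arrays, but the male pair lay further apart than the female pair. Without array 1 the male value was −0.47 (adjusted p = 0.172) and the female value −1.22 (adjusted p = 0.0696). Its dimer partner Clock was above background on both arrays of neither RNA in these comparisons and was not tested there. In the intact comparison Clock was tested and had a log2 ratio of 0.07 ± 0.06 (adjusted p = 0.573), with only the female RNA above background on both arrays.

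Among the Per genes, which encode the repressors of the Arntl and Clock dimer, Per2 had the largest fitted change with the offset of 50. In males its log2 ratios were 1.30 and 1.54, a fit of 1.42 ± 0.21 (2.67-fold, adjusted p = 0.00135). In females they were 1.72 and 0.89, a fit of 1.31 ± 0.21 (2.48-fold, adjusted p = 0.00205). The female arrays enclosed both male values, and without array 1 the female value was 0.93 (adjusted p = 0.0647). Per3 was above background in Hx RNA alone. In males its log2 ratios were 0.68 and 0.54 (0.61 ± 0.09, 1.52-fold higher, adjusted p = 0.00131). In females they were 0.67 and 0.76 (0.72 ± 0.09, at least 1.63-fold higher, adjusted p = 0.000594). The second Per3 probe gave 0.41 ± 0.10 in females (at least 1.30-fold higher, adjusted p = 0.0159) and 0.39 ± 0.10 in males, where it was not tested, and the third was in no RNA above background. From the processed signals this order was the other way round, with 2.71 in males and 3.21 in females for the brightest Per3 probe and 1.45 and 1.35 for Per2. Per1 changed least of the 3, by 0.27 ± 0.09 in males (arrays 0.15 and 0.38, adjusted p = 0.0427) and 0.37 ± 0.09 in females (arrays 0.19 and 0.54, adjusted p = 0.0126). The processed signals gave Per1 0.59 and 0.66. The male Per1 call ended without array 1 (0.31, adjusted p = 0.133) or array 2 (0.23, adjusted p = 0.223), and the female call ended without array 2 (0.25, adjusted p = 0.211). The male calls of Per1 and Tef also ended with the 2 arrays fitted alone (adjusted p = 0.228 and 0.218), and that of Per1 without the dye term (0.102) and with all probes tested (0.0544).

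**Figure D1:**
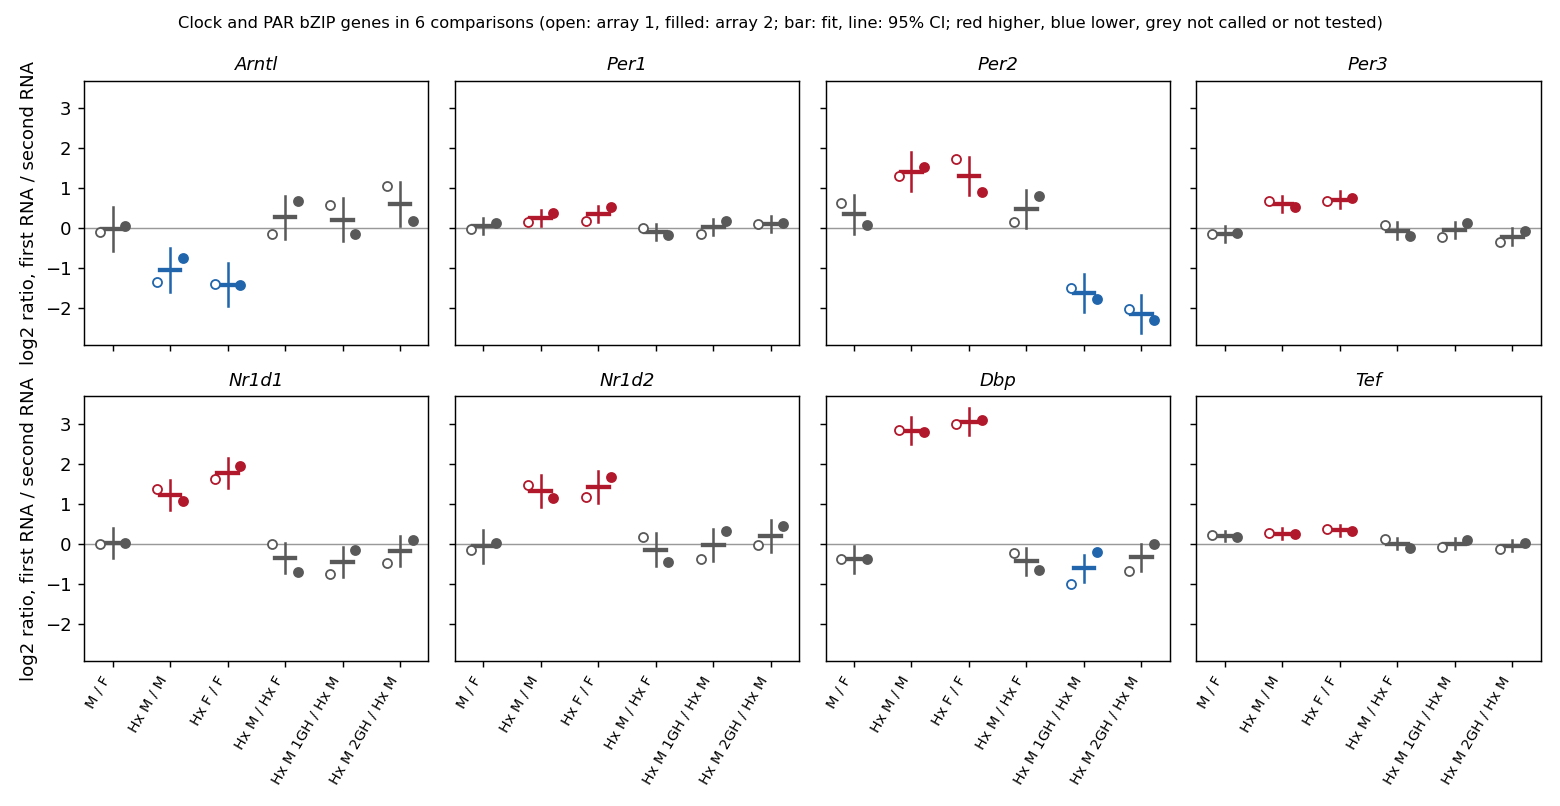
Log2 ratios of the 8 members with the most readings above background, by comparison (x axis, first RNA over second; M and F, intact males and females; Hx, hypophysectomised; 1GH and 2GH, 1 or 2 GH injections). Open and filled circles are arrays 1 and 2, short bars the fit and vertical lines its 95% confidence interval. Dbp stands at 2.82 and 3.04 in the Hx comparisons, Arntl at −1.04 and −1.41, and Per2 changes sign between hypophysectomy and GH.

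With the members placed by both sexes, all 8 lay in the quadrants of like direction. No member passed the test of a sex difference in the change (0 of 6 tested in limma and 1 at an unadjusted p under 0.05, where 13.5% of 23859 probes passed). Median centring of the ratios in place of loess left 1 of 8 male and 2 of 8 female calls (Dbp in both and Nr1d1 in females). With it 345 of 25984 probes were called in males and 370 of 24320 in females. Each member kept its direction. The sums of the ratios around the loop of intact and Hx RNAs had 95% intervals that included 0 for all 9 members in the fit.

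**Figure D2:**
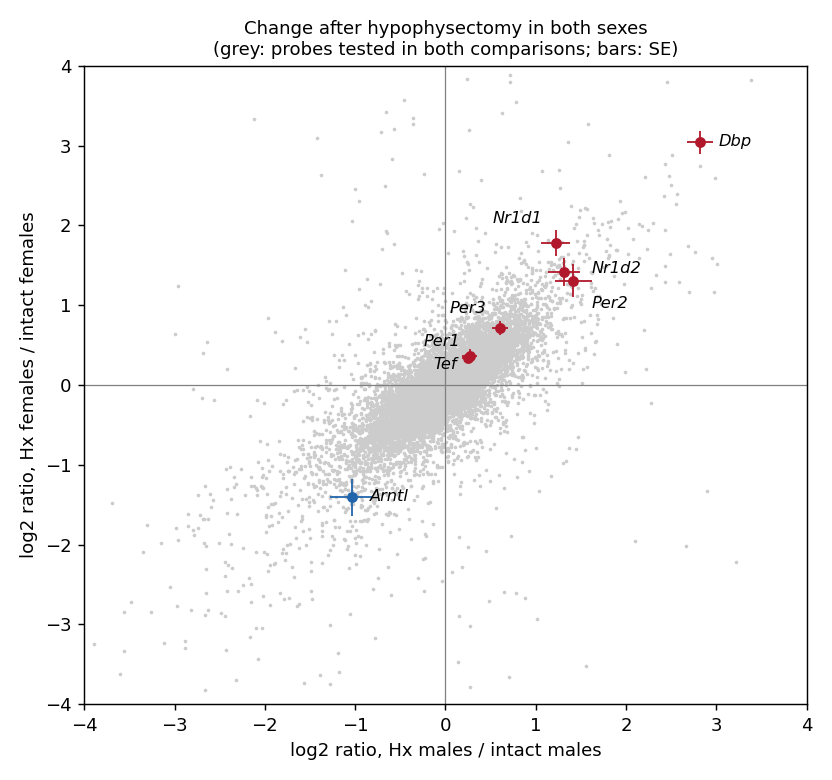
Log2 ratio of Hx over intact in males (x axis) and in females (y axis) for the members (red higher, blue lower, bars 1 SE) and for all probes tested in both comparisons (grey). Dbp lies at 2.82 and 3.04, at the edge of the grey cloud, and Tef and Per1 lie inside it.

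In the liver of intact rats no member was called between the sexes (0 of 7 tested in limma and 1 at an unadjusted p under 0.05, where 15.5% of 25714 probes were called). Dbp came nearest, with log2 ratios of males over females of −0.39 and −0.40, a fit of −0.39 ± 0.15 (95% interval −0.73 to −0.05, adjusted p = 0.121). Both arrays lay below 0, and a fit to those 2 arrays alone called it (adjusted p = 0.0210). Per2 had 0.62 and 0.08 (0.35 ± 0.21, adjusted p = 0.330). The intervals of Arntl (−0.56 to 0.52) and Nr1d1 (−0.37 to 0.38) included 0.

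Without the pituitary there was likewise no call between males and females (0 of 8 tested in limma and 2 at an unadjusted p under 0.05, where 0.949% of 26038 probes were called). Dbp had −0.23 and −0.66 (−0.44 ± 0.15, adjusted p = 0.241) and Per2 had 0.17 and 0.80 (0.48 ± 0.21, adjusted p = 0.364). Nr1d1 had 0.00 on array 1 and −0.71 on array 2, and Arntl −0.13 and 0.68. For these last genes the 2 arrays lay further apart than their mean lay from 0.

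Across the 6 RNAs, single-channel levels are given as means ± SD over arrays in log2 units of intensity of each gene's own probe, with readings of the same pools among the arrays. Dbp was highest in Hx females (12.6 ± 0.17, n = 4) and Hx males (12.2 ± 0.39, n = 8), then after 2 injections (11.9 ± 0.02, n = 2) and 1 injection (11.6 ± 0.05, n = 2), and lowest in intact females (9.04 ± 0.63, n = 4) and intact males (8.71 ± 0.75, n = 4). Arntl had the opposite order of Hx and intact RNAs, from 12.9 ± 0.03 in intact females and 12.9 ± 0.06 in intact males through 12.4 ± 0.10 after 2 injections and 12.0 ± 0.02 after 1 to 11.7 ± 0.42 in Hx males and 11.4 ± 0.07 in Hx females. For both genes the direct comparisons gave no call between intact males and females or between Hx males and females, although Dbp was lower in males on all 4 of those arrays and its 95% intervals lay below 0 in both (−0.73 to −0.05 and −0.78 to −0.11). Nr1d1 ran from 10.4 ± 0.35 in Hx females, 10.1 ± 0.24 in Hx males, 9.87 ± 0.05 after 2 injections and 9.56 ± 0.04 after 1 to 8.72 ± 0.34 in intact males and 8.51 ± 0.16 in intact females. Nr1d2 was between 8.50 and 8.70 in the 4 RNAs of Hx rats and between 7.13 and 7.17 in the intact ones. Per2 was 12.7 ± 0.16 in Hx males and 12.3 ± 0.15 in Hx females, 11.3 ± 0.08 in intact males and 11.0 ± 0.31 in intact females, and it alone of these 5 genes had its lowest mean after 2 injections (10.6 ± 0.00).

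The spread of the Hx male readings followed the number of the array in the sample titles. Hx male RNA was on 8 arrays, 4 numbered 1 and 4 numbered 2, and the sources used here do not say which pool went on which. Arntl read 11.2 to 11.4 log2 units of intensity in Hx males on the arrays numbered 1 and 12.1 to 12.2 on those numbered 2. Dbp read 12.5 to 12.6 on the former and 11.7 to 11.9 on the latter. Nr1d2 read 8.81 to 8.94 and 8.12 to 8.43. None of these 3 genes overlapped between the numbers, and the gap in mean level was −0.77 for Arntl, 0.71 for Dbp and 0.62 for Nr1d2. Arntl was high where Dbp was low. These were the widest gaps of the 10 members in Hx males. Nr1d1 (0.37), Per2 (−0.25) and Per3 (0.24) had smaller gaps and did not overlap either. The share of all probes with such a gap was not counted. Over all probes in the fit, deviations of same-numbered arrays correlated at 0.84 between the 2 comparisons with Hx male RNA as the first RNA. A spread by array number was thus not particular to the clock genes. The arrays of each number held Hx male RNA in both dyes. Within the slide that held all GH arrays, Arntl read 11.4 on both arrays numbered 1 and 12.1 and 12.2 on those numbered 2. On that slide the dye of the Hx male RNA changed with the number, so number and dye cannot be told apart there. In intact males, intact females and Hx females the corresponding gap in Arntl lay between −0.09 and 0.04. For the GH pools, each read once per number, the Arntl gap was −0.03 after 1 injection and 0.14 after 2. Other members had gaps without overlap outside Hx males, such as −0.60 for Nr1d1 in Hx females and −0.53 for Per2 in intact females. Both were wider than the gap of the same gene in Hx males.

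A fit with the array number as a term of the Hx male RNA alone was added after these levels were seen. It left the ratios of the members as they were and lowered the SE of Arntl from 0.24 to 0.05 and that of Dbp from 0.15 to 0.08. In comparisons that hold Hx male RNA, its p-values leave out the spread between the Hx male readings of the 2 numbers. Between intact males and females, which hold none of that RNA, Dbp was then called (adjusted p = 0.00568). Its ratio there stayed at −0.39, and only its SE was lower. The fit takes that SE from the arrays of all comparisons, including those with Hx male RNA. The term was chosen after the Dbp levels were seen, so this call is not a separate test of a sex difference. Between Hx males and Hx females Dbp, Nr1d1 and Arntl were called (adjusted p = 0.0131, 0.0154 and 0.0157), and the sex difference in change was called for Nr1d1 (adjusted p = 0.00106) and Arntl (0.33 ± 0.05, adjusted p = 0.00150). All 8 members tested after hypophysectomy were called in each sex with this term too, where 13098 of 25984 probes were in males and 12035 of 24320 in females. The term raised the calls over all probes as well, to 6943 of 25714 between intact males and females. They rose to 1730 of 26038 between Hx males and females and to 6173 of 23859 for the sex difference in change.

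**Figure D3:**
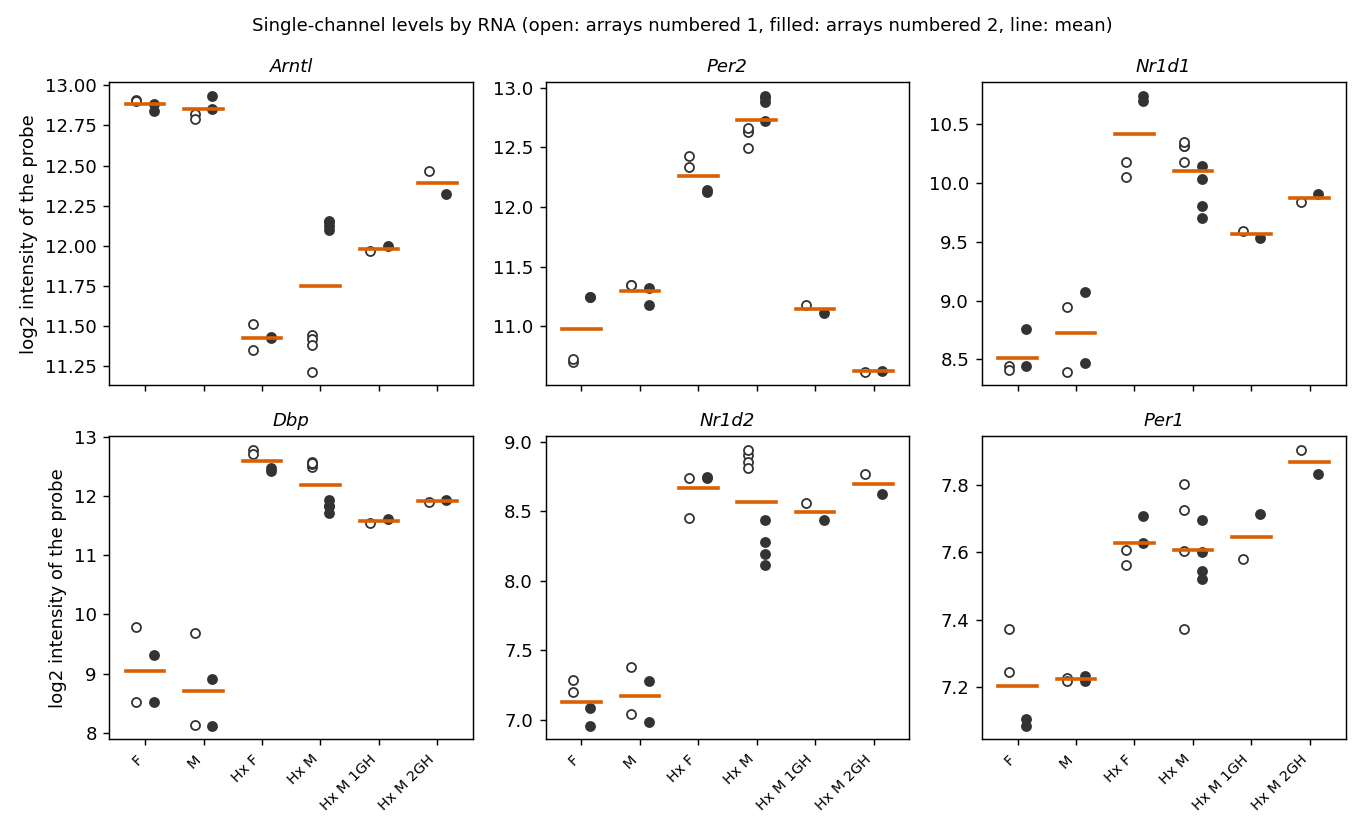
Log2 intensity of the probes of 6 members after normalization (y axis, a separate scale for each gene) in the 6 RNAs (x axis), with open circles for arrays numbered 1, filled circles for arrays numbered 2 and a line at the mean. In Hx males, Arntl, Dbp and Nr1d2 fall into 2 levels by array number, and Per2 is lowest after 2 GH injections.

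Per2 was lower in the pools of Hx males given GH than in Hx males given nothing further. After 1 injection its log2 ratios over untreated Hx males were −1.48 and −1.76, a fit of −1.62 ± 0.21 (3.08-fold lower, adjusted p = 0.00218). After 2 injections they were −2.01 and −2.29, a fit of −2.15 ± 0.21 (4.43-fold lower, adjusted p = 0.000152). The 4 arrays agree in direction, and both arrays of 2 injections lay below both of 1 injection. Both comparisons share the Hx male RNA with each other and with the comparison of Hx and intact males. The further change from 1 to 2 injections, −0.53 ± 0.30, did not pass (adjusted p = 0.331). Within the arrays of 1 number that change was −0.53 in both, and the SE counts as error the gap between the numbers that these arrays share through the Hx male RNA. With the array number as a term of that RNA it was −0.53 ± 0.25 (adjusted p = 0.180). Summed through the Hx male RNA, Per2 after 1 injection differed from intact males by −0.21 (95% interval −0.88 to 0.47) and after 2 injections by −0.73 (−1.41 to −0.05). Leaving out array 1 or array 2 ended the 1-injection call, with values of −1.66 and −1.58. Median centring ended that call and the 2-injection call (adjusted p = 0.493 and 0.0755), with values of −1.69 and −2.53 and a larger SE of 0.41. With that centring 0 of 26359 probes were called after 1 injection and 75 of 28438 after 2.

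Among the tested members 2 of 8 were called after 1 injection, both lower (Per2 and Dbp), where 14.3% of 26359 probes were called (6.79% lower). After 2 injections 1 of 9 was called, Per2, where 30.8% of 28438 probes were called (15.8% lower). Dbp after 1 injection had −1.01 and −0.22, a fit of −0.62 ± 0.15 (1.53-fold lower, adjusted p = 0.0283), and after 2 injections −0.68 and 0.00 (−0.34 ± 0.15, adjusted p = 0.125). In both comparisons array 1, whose Hx male reading was the higher, gave the larger fall. The GH pool itself read 11.5 and 11.6 for Dbp on its 2 arrays. Without array 1 the 1-injection value was −0.34 (adjusted p = 0.437) and without array 2 −0.89 (adjusted p = 0.0681). It was also not called from its 2 arrays alone (adjusted p = 0.190) or without the dye term (adjusted p = 0.0969). Summed through the Hx male RNA, Dbp stayed above intact males by 2.21 ± 0.21 after 1 injection and by 2.48 ± 0.21 after 2.

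The remaining members were not called after GH without a term for the array number. Nr1d1 had −0.76 and −0.16 after 1 injection (−0.46 ± 0.16, adjusted p = 0.103) and −0.48 and 0.10 after 2 (−0.19 ± 0.16, adjusted p = 0.470). Arntl had 0.59 and −0.15 after 1 injection (0.22 ± 0.24, adjusted p = 0.593) and 1.05 and 0.17 after 2 (0.61 ± 0.24, adjusted p = 0.0903). Nr1d1 changed sign between the arrays after 2 injections, and Arntl after 1. Per1 (0.02 ± 0.09 and 0.12 ± 0.09) and Tef (0.00 ± 0.06 and −0.06 ± 0.06) had intervals that included 0. Per3 had −0.21 ± 0.09 after 2 injections (adjusted p = 0.119), and the processed signals gave −0.69 and a call (adjusted p = 0.0422). In the test of 2 injections against 1, 0 of 8 members passed in limma and 0 at an unadjusted p under 0.05, where 10.4% of 26208 probes passed.

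With the array number as a term of the Hx male RNA, 4 of 8 members were called after 1 injection, where 7577 of 26359 probes were, and 5 of 9 after 2, where 11656 of 28438 probes were. Beside Per2 and Dbp, the 1-injection calls were Nr1d1 (adjusted p = 0.00110), lower, and Arntl (adjusted p = 0.0108), higher. After 2 injections Dbp (adjusted p = 0.00658), Nr1d1 (adjusted p = 0.0422) and Per3 (adjusted p = 0.00709) were lower and Arntl was higher (adjusted p = 1.71e-05). For 2 injections against 1, in which the Hx male RNA cancels, Arntl was higher by 0.46 within number 1 and by 0.32 within number 2. With the term Arntl was called (0.39 ± 0.07, adjusted p = 0.00481), where 5999 of 26208 probes were. Without the term its ratio was also 0.39, with an SE of 0.33. The term was chosen after the Arntl levels were seen.

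The other genes of the clock, from a list of 17 of which 14 were on the array and 13 tested, moved in both directions. In Hx over intact males 2 were higher and 4 lower of 13, where 37.5% of all probes were called, and in females 3 were higher and 4 lower, where 36.3% were. Bhlhe41, which encodes the E-box repressor DEC2, had the largest rise, with log2 ratios of 2.63 and 1.79 in males (2.21 ± 0.25, adjusted p = 0.000386) and 2.76 and 2.44 in females (2.60 ± 0.25, adjusted p = 0.000178). Cry1, the partner of the Per proteins, fell on every array, to −1.62 ± 0.20 in males (adjusted p = 0.000559) and −2.04 ± 0.20 in females (adjusted p = 0.000183). Npas2, a relative of Clock, fell by less, with −0.29 ± 0.06 and −0.45 ± 0.06. Nfil3, a repressor that binds the same D-box as Dbp, was at −0.28 ± 0.08 in males and −0.84 ± 0.08 in females, and its male change minus its female change passed (0.54 ± 0.08, adjusted p = 0.00355). Past the 4 largest changes in each sex, 2 further genes were picked after their values were seen. Cry2 rose by 0.27 ± 0.07 in males (adjusted p = 0.0160) and by 0.21 ± 0.07 in females (adjusted p = 0.0443). Timeless, whose protein in mammals acts at replication forks, rose in females (0.38 ± 0.07, adjusted p = 0.00416) and had 0.13 ± 0.07 in males (adjusted p = 0.180), and the sex difference in its change was not called (−0.18 ± 0.07, adjusted p = 0.136).

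After 1 GH injection, 1 of the 13 was higher and 3 were lower, where 14.3% of all probes were called. Bhlhe41 fell to −1.18 ± 0.25 (adjusted p = 0.0180), and Usp2, which encodes a deubiquitinase, to −0.77 ± 0.14 (adjusted p = 0.0110). Nfil3 rose by 0.68 ± 0.08 (adjusted p = 0.00137) and Timeless was at −0.32 ± 0.07 (adjusted p = 0.0190). After 2 injections the counts were again 1 higher and 3 lower, where 30.8% of all probes were called, with Usp2 at −0.90 ± 0.14 (adjusted p = 0.00187), Timeless at −0.80 ± 0.07 (adjusted p = 8.73e-05), Cry2 at −0.34 ± 0.07 (adjusted p = 0.00563) and Nfil3 at 0.30 ± 0.08 (adjusted p = 0.0201). Cry1 was not called after either (0.14 ± 0.20 and 0.04 ± 0.20). Of the 2 injections against 1, only Timeless passed in this list (−0.48 ± 0.10, adjusted p = 0.0206). In intact rats Nfil3 was lower in males (−0.47 ± 0.08, adjusted p = 0.00538) and Timeless higher (0.36 ± 0.07, adjusted p = 0.0103), and between Hx males and Hx females no listed gene was called (2 of 13 at an unadjusted p under 0.05 in limma).

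**Figure D4:**
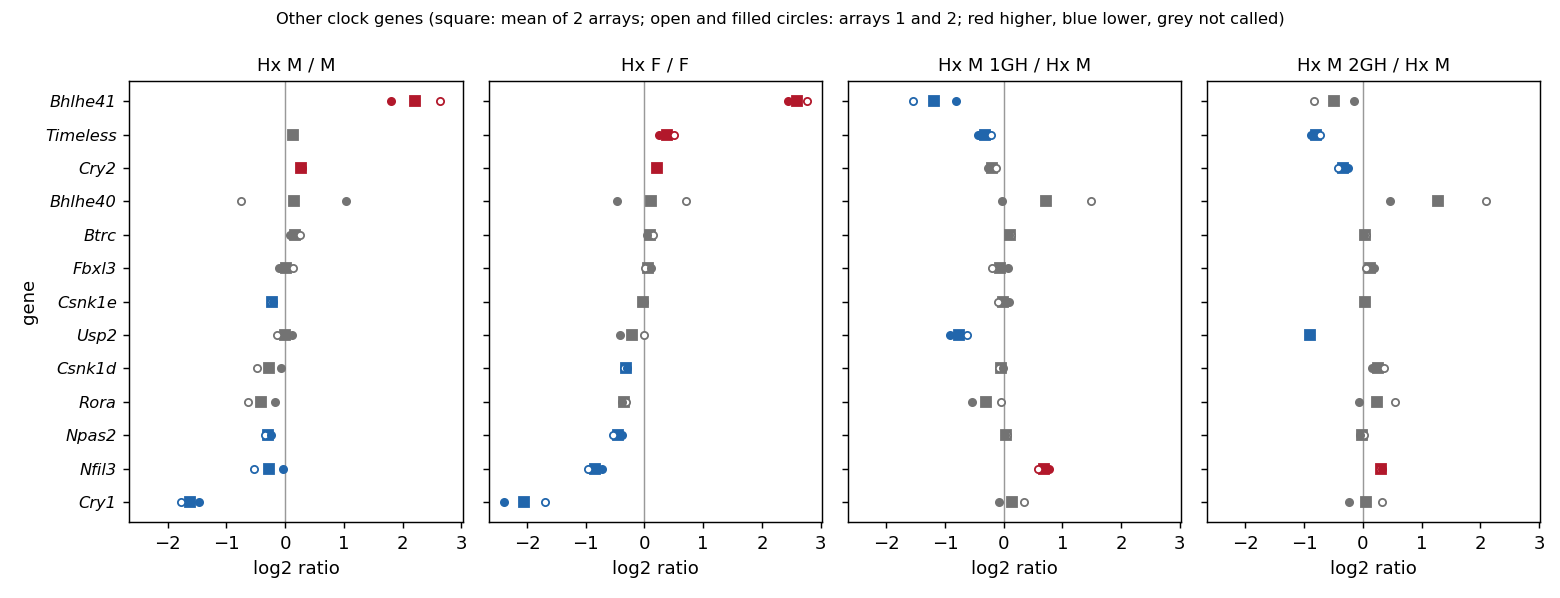
Log2 ratios of the 13 other clock genes tested (y axis, ordered by the female change) in 4 comparisons. Squares are the mean of the 2 arrays and open and filled circles are arrays 1 and 2, with red for higher, blue for lower and grey for not called. Bhlhe41 and Cry1 lie at the ends in both sexes after hypophysectomy, and the arrays of Bhlhe40 lie far apart.

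Metabolic genes that follow the clock in liver, 15 on the list and 13 tested in most comparisons, also split. In Hx over intact males 4 were higher and 5 lower of 13, where 37.5% of all probes were called, and in females 5 were higher and 4 lower, where 36.3% were. Alas1, the first enzyme of haem synthesis, was at −1.36 ± 0.22 in males and −1.53 ± 0.22 in females, and Pdxk, a vitamin B6 kinase, at −1.14 ± 0.12 and −1.23 ± 0.12. Alas1 and Pdxk fell in the comparisons in which Dbp rose, while the 4 genes of this list called higher in males and the 5 in females moved with it. Upp2, a uridine phosphorylase, rose by 1.13 ± 0.26 and 1.82 ± 0.26. Cyp7a1, the first enzyme of bile acid synthesis, was called in males (−0.97 ± 0.21), and Nr1i3, the xenobiotic receptor CAR, had its larger value in females (1.20 ± 0.10).

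After 1 GH injection 1 of 13 genes of this list was higher and 2 were lower, where 14.3% of all probes were called, and after 2 injections 3 of 14 were higher and 3 lower, where 30.8% were. Nampt, the enzyme that makes a precursor of NAD, rose by 2.06 ± 0.18 after 1 injection and 3.56 ± 0.18 after 2, with a difference of 1.50 ± 0.26 between them (adjusted p = 0.0102). Nr1i3 fell in both, to −0.77 ± 0.10 and −1.79 ± 0.10, as did the cell cycle kinase Wee1, to −0.65 ± 0.13 and −1.09 ± 0.13. Cyp7a1 was called after 2 injections (−1.18 ± 0.21). Alas1 and Pdxk were called in neither GH comparison. In intact males over females Insig2 (0.94 ± 0.24), Nr1i3 (0.72 ± 0.10) and Gys2 (0.43 ± 0.09) were higher and Nampt (−0.67 ± 0.18) was lower.

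Among 4932 genes tested in all 6 comparisons, those whose 6 log2 ratios lay nearest to Dbp by Euclidean distance were Ndrg1 (1.59), Cyp1a1 (1.62), Serpina7 (1.63), Hsd17b2 (1.65) and Nupr1 (1.71). Ndrg1 had ratios of 2.08 and 1.83 after hypophysectomy in males and females. For Arntl they were Cs (0.58), Idh3a (0.59), Rangap1 (0.60), Tubb6 (0.62) and Ppif (0.63). Cs and Idh3a, both enzymes of the citric acid cycle, had −1.18 and −1.09, and −1.10 and −0.94. In these lists the distance gives an order of likeness over 6 comparisons that share RNAs.

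Markers of other liver cells also moved after hypophysectomy. Of the endothelial markers 5 of 7 tested were higher in males and 5 of 6 in females. Of the bile duct markers 3 of 5 were higher in each sex. Of the erythroid markers 3 of 4 were lower and 1 was higher in each sex. In these comparisons 37.5% of all probes were called in males and 36.3% in females. Of the macrophage markers 1 of 7 was higher in each sex. After 1 GH injection 6 of 7 macrophage markers were higher, where 14.3% of all probes were called. Their median log2 ratio was 0.26 after 1 injection, against 0.00 after 2 injections. Of the hepatocyte markers 1 of 8 was higher and 3 lower in males, and 2 higher and 1 lower in females. Of the lymphocyte markers 2 of 6 were higher in each sex, and a seventh was above background in no reading. Of the stellate cell markers 2 of 6 were higher and 2 lower in males, and 1 higher and 1 lower in females. The median log2 ratio of the endothelial markers was 0.27 and 0.32 in males and females, against 0.91 and 1.01 for the tested clock members. That of the bile duct markers was 0.68 and 0.36. That of the erythroid markers was −1.20 and −0.998, in size near those of the clock members but lower. The medians of the hepatocyte, macrophage, stellate cell and lymphocyte markers lay between −0.34 and 0.22. In pooled liver RNA, fewer cells of a type and less RNA per cell cannot be told apart, and the part of these cells in the results above was not tested.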

How the data were processed

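Liver RNA of rats was measured on 12 arrays in 6 comparisons, with RNAs and dyes taken from the labels. On 1 array of the 1-injection comparison the channel label leaves out GH, so it was placed by its title. Per the file headers, Agilent Feature Extraction (9.1.3.1) made the deposited mean and background intensity of 45018 spots per colour, with a log10 ratio of the deposited processed signals and other deposited columns of 0 or 1 flags. The values deposited for the whole series were found to be log2 ratios of channel 2 over channel 1 of the processed signals; array medians lay between −0.13 and 0.15. No spot was marked saturated.

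Intensities were background-corrected with normexp (offset 50) and normalized by loess within arrays with limma (version 3.58.1; R 4.3.3, data.table package 1.17.8), leaving out 1639 control spots and outlying spots. Ratios were turned to channel 2 over channel 1, and spots of a probe averaged. The offset pulls ratios of dim probes toward 0. A limma model over all 12 arrays had 1 coefficient per comparison and 1 for dye (5 residual and 3.08 prior degrees of freedom), with Benjamini-Hochberg adjustment over the probes tested in each comparison. It was tested on simulated data. Levels used Aquantile between arrays. A bound ("at least") sets the brighter mean against the lowest signal among probes well above background, or the dim probe's own where that is higher. It leaves out the error of the fit, and a bound equal to the fitted fold is given as the fold. Precision is limited by the number of arrays.

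The members, lists and rules were chosen with earlier results of these data known. All members are named through their brightest probe, with up to 4 called genes of 2 further lists per comparison by size of change and the 5 genes nearest to Dbp and to Arntl. A gene so named may be given in a comparison where it was not called. Alternatives were median centring, the processed signals, the value table, an offset of 10 and the array number as a term of the Hx male RNA (both added after the data were seen), all probes tested, both RNAs above background, the mean of a gene's probes, no dye term, each comparison alone, blocks for slide and replicate number, and each array left out.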

Additional observations from a re-analysis of the deposited data

How the results depend on the processing

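Over all alternatives, the values of single members stayed on the same side of the threshold with the same direction in 809 cases, 34 lost and 17 gained a call (13 of these with the array number as a term of the Hx male RNA), 40 uncalled values moved through 0, and no called value reversed. Median centring left 1 call of 8 in Hx over intact males, 2 of 8 in females, 0 after 1 injection and 0 after 2. Over all probes it left, in the same order, 345 of 25984, 370 of 24320, 0 of 26359 and 75 of 28438. For 1 injection, the 2 arrays alone and the fit without a dye term each left 1 call (Per2), where 810 and 2106 of 26359 probes were called. Processed signals and the value table gave 2 calls after 2 injections (Per2 and Per3), where 10130 and 10115 of 28438 probes were called. The 2 arrays alone gave 1 call between intact males and females (Dbp), where 3015 of 25714 probes were called. The cause of these shifts was not tested. With each array left out in turn, calls ranged from 5 to 7 in males and 5 to 7 in females after hypophysectomy, were 0 with either array out after 1 injection and 1 after 2, and for the sex difference in change ranged from 0 to 1 (Nr1d1 without array 1 of Hx over intact males); these fits hold fewer arrays. Over all probes, leaving out either array also lowered the calls in males and females after hypophysectomy and after 1 and 2 injections. The loss of calls was thus not particular to the members. For the sex difference in change, calls over all probes rose without array 1 of Hx over intact males, the fit that called Nr1d1. Deviations of same-numbered arrays correlated at 0.84 between the 2 comparisons with Hx male RNA as the first RNA and at 0.69 between the GH comparisons. Comparisons that share no RNA correlated too. With 1 and 2 injections, Hx over intact females gave −0.53 and −0.48, and intact males over females 0.35 and 0.41. Intact males over females gave −0.46 with Hx males over Hx females, and the 2 Hx over intact comparisons gave 0.20. Where Hx male RNA changed sides, the GH comparisons gave −0.67 and −0.66 with Hx over intact males. With Hx males over Hx females they gave −0.32 and −0.32. A replicate block common to all ratios cannot follow that change of sign, and it gave 8, 8, 2, 1 and 0 calls as without it. The replicate block on the Hx male RNA alone, added after the data were seen, gave 4 calls after 1 injection, 5 after 2, 1 for 2 injections against 1, 1 between intact males and females, 3 between Hx males and females and 2 for the sex difference in change. Over all probes this block raised the calls as well, to 7577 of 26359 after 1 injection and 11656 of 28438 after 2. For the sex difference in change they rose to 6173 of 23859. The within-slide correlation was 0.01. Dim probes limit Hlf, Clock, Tef and Per3.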

Other observations

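Bhlhe40, which encodes the E-box repressor DEC1, was outside the naming rule and was chosen after its values were seen. In the comparisons that hold Hx male RNA its 2 arrays lay further apart than those of any printed clock member. The log2 ratios of Hx over intact males were −0.75 on array 1 and 1.03 on array 2, and those of Hx males over Hx females were −1.44 and 1.25. After 1 injection they were 1.48 and −0.03, and after 2 injections 2.09 and 0.47. The means did not pass the test in any of these comparisons, with SE of 0.62 on each (adjusted p = 0.172 after 2 injections, where both arrays lay above 0). Its relative Bhlhe41 had ratios of one sign on both arrays of all 6 comparisons.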
